A study of Mus musculus with 549 samples.

Results

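The 8 genes described here encode secreted proteins that restrain Wnt signalling: Wif1, Sfrp1, Sfrp2, Sfrp4, Frzb, Dkk1, Dkk2 and Dkk3. They were chosen by symbol, and all 8 were found among the 23385 named genes of each table. Transcripts were sequenced from their 3′ ends in cartilage of the tibia, cortical and cancellous bone of its metaphysis (the latter cleared of marrow) and the inguinal lymph node of male C57BL/6J mice. From 18 weeks of age the mice were given parathyroid hormone, PTH(1-34), whose intermittent injection raises bone formation, or vehicle, on 5 days a week for 8 weeks. Tissues were taken then, at 26 weeks of age, or after 1 or 2 further weeks, at 27 and 28 weeks. During those weeks the left tibia was compressed on 5 days a week (9 N peak, 4 Hz, 1200 cycles per day), and the right tibia of the same mouse was its contralateral control.

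Over the weeks of loading they were given vehicle or alendronate, which is a bisphosphonate and inhibits osteoclasts. The 4 treatments after loading were therefore vehicle throughout (vehicle mice), PTH then vehicle (PTH mice), vehicle then alendronate (alendronate mice), and PTH then alendronate (PTH-alendronate mice). All groups share the strain, the sex and the weeks of pretreatment, and every mouse of the loading weeks was loaded on the left. The contralateral limb is a control within the mouse, so an effect of loading on the whole animal would appear in both limbs. Which limbs share a mouse was inferred from the codes in the sample titles.

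Values were available for 505 of 549 samples, and 44 samples are not analysed here. Libraries held 3630 to 3557793 reads (median 1551090). The 28 libraries under 100000 reads were left out, which left 477. Values are the authors' normalised counts, scaled within each tissue and week, so every test compares libraries of 1 table. A log2 difference was tested on log2(normalised count + 1), which understates the change of low genes, and a gene was called at a Benjamini-Hochberg adjusted p under 0.05 from limma.

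Wnt ligands act by joining a Frizzled receptor to the co-receptor Lrp5 or Lrp6, which stabilises β-catenin and drives target genes. Secreted inhibitors act outside the cell in different ways. Wif1 and the secreted Frizzled-related proteins (Sfrp1, Sfrp2, Sfrp4 and Frzb, also called Sfrp3) bind the ligands themselves, whereas Dkk1 and Dkk2 bind Lrp5 and Lrp6. Dkk3 is a divergent member of the Dickkopf family without an established action on those co-receptors. In the skeleton Wnt signalling promotes bone formation, and inhibitors of this class are made by osteoblasts, osteocytes and chondrocytes.

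Promoter sequences were present in the RefSeq table (GRCm38.p6, 250 bases before to 50 after the annotated start) for 5 of the 8 genes. Wif1, Sfrp2 and Dkk1 are shown because, of the genes called higher after PTH pretreatment (described below), only these 3 had a sequence. Each lies on another chromosome. They are printed 5′ to 3′ on the strand of the gene, and capitals mark every match, on either strand, to the motif CTTTGA, to the motif TATAAA and to the motif GGGCGG.
Wif1 (chr10:121033754-121034053, plus strand): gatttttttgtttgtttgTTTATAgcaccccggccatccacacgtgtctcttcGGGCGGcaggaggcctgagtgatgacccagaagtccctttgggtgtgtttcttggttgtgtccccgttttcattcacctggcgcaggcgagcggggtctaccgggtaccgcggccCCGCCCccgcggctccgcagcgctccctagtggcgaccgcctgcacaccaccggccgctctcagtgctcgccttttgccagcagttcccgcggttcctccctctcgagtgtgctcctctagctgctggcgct
Sfrp2 (chr3:83766071-83766370, plus strand): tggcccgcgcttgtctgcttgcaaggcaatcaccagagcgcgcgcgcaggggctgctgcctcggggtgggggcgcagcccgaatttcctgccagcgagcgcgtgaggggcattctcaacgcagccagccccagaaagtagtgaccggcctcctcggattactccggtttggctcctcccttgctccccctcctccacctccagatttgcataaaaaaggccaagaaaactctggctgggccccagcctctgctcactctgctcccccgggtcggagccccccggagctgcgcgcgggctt
Dkk1 (chr19:30549447-30549746, minus strand): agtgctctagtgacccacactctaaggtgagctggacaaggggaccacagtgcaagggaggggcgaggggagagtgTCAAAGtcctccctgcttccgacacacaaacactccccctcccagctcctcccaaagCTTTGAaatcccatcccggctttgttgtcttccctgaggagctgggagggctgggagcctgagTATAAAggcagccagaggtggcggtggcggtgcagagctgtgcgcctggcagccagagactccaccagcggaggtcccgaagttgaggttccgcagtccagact
CTTTGA, the core of the element bound by the Tcf and Lef factors of the Wnt pathway, was present in the Dkk1 window at -174 and -117 from the start, on opposite strands, and 16% of 32851 RefSeq promoters of this length hold it. TATAAA, the TATA box core, was present in the Wif1 window at -232, on the strand opposite to the gene, and in the Dkk1 window at -54. It was present in 13.6% of promoters. GGGCGG, the core bound by Sp factors, was present in the Wif1 window on both strands and in 35.7% of promoters. The Sfrp2 window held none of these 3, and none of the 3 windows held TGACGT (7.51% of promoters), the core of the element bound by the cAMP-responsive factor Creb, which acts below the PTH receptor. TGANTCA, the site of AP-1 factors, was likewise in none of the 3 windows and in 7.81% of promoters. A match describes letters in the window and is not a measured binding site.

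Some libraries stood apart from their label or group. In lymph node at 1 week, vehicle right replicate 1 had a summed osteoblast marker list of 50051 normalised counts, against at most 251 in the other 43 libraries. Its chondrocyte list summed to 11380 against at most 47.4, and its lymphocyte list to 403 against a median of 3722. It was the one lymph node library of that week with Dkk1, at 15.6 normalised counts, and it held Wif1 at 184 against at most 12.4 elsewhere. In cortical bone at 2 weeks, vehicle left replicate 6 had Sfrp4 at 1825 against at most 104.3. Its osteoblast list summed to 331350 against at most 101480 and its neutrophil list to 133190 against at most 87934. Its erythroid list summed to 15006 against at most 4984 and its endothelial list to 2783 against at most 647. The other cell type lists did not exceed those of the other libraries. That library had no reads of Sfrp2, Frzb, Dkk2 or Dkk3, but each of these had no read in 2 of the 7 libraries of its group. Depths in that group went down to 127524 reads, and the part of depth in these zeros was not tested. In lymph node at 2 weeks, vehicle right replicate 5 had a neutrophil list of 32876 against at most 1724, a chondrocyte list of 1063 against at most 362 and an erythroid list of 2155 against at most 146. In cartilage at 2 weeks, PTH-alendronate right replicate 3 had Dkk3 at 1404, and the other 3 libraries of its group at most 68.7.

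In cartilage after loading, 7 libraries had a summed lymphocyte list over 1000 normalised counts, 4 at 1 week and 3 at 2 weeks, and the others reached at most 316 and 239. In all 7 Wif1 was below every library of its own group that was not among the 7. At 1 week it was 56.8 in vehicle right replicate 6 (others 168 to 281), 76.5 in PTH right replicate 6 (others 349 to 1102), 62.2 in PTH left replicate 6 (others 243 to 464) and 25.4 in PTH-alendronate right replicate 3 (others 191 to 366). At 2 weeks it was 8.45 and 19.5 in PTH right replicates 1 and 7 (others 105.2 to 259) and 70.9 in PTH left replicate 6 (others 123 to 344). Changes in the loading calls without these libraries are given below, and correlations are given only with them. In bulk tissue, fewer cells of a type and less RNA per cell cannot be told apart.

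Levels before loading were compared between tissues of vehicle mice as RPM, reads of the gene per 1000000 reads of the library, computed from the recovered whole reads and so independent of the scaling of each table. They are a description over 15 cartilage, 7 cortical, 7 cancellous and 16 lymph node libraries, with both limbs of a mouse among them. Levels are compared within a gene, not between genes.

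Wif1 was far higher in the 3 skeletal tissues than in lymph node, and Dkk1 was not detected in lymph node. Wif1 averaged 148 ± 80.4 RPM (SD) in cartilage, 129 ± 48.8 in cancellous bone, 126 ± 28.9 in cortical bone and 4.16 ± 3.87 in lymph node. The 3 skeletal tissues overlapped, and the lowest of their libraries (58.2 RPM in cartilage) lay above the highest lymph node library (17.4 RPM). Dkk1 averaged 17.2 ± 16.3 RPM in cancellous bone, 16.5 ± 6.84 in cortical bone and 14.8 ± 10.8 in cartilage, in overlapping ranges. It had no read in any of the 16 lymph node libraries, which together allow at most 0.134 RPM (3 reads in 22340312, counting error only).

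Sfrp4, whose loss in humans thins cortical bone, was also a skeletal transcript. It averaged 27.1 ± 14.1 RPM in cancellous bone, 22.3 ± 8.24 in cortical bone and 22.3 ± 12.1 in cartilage, and 0.132 ± 0.286 in lymph node, where 13 of 16 libraries held no read. Frzb, first identified in cartilage, averaged 57.3 ± 57.2 RPM in cartilage, 10.7 ± 10.8 in cancellous bone, 8.72 ± 9.66 in cortical bone and 4.55 ± 4.37 in lymph node. Its neighbouring tissues overlapped at every step. Dkk3 averaged 39.4 ± 29.6 RPM in cartilage, 24.006 ± 7.55 in cortical bone, 15.8 ± 13.3 in cancellous bone and 9.54 ± 4.41 in lymph node, again with overlap at each step.

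Sfrp1 had its lowest mean in cartilage, at 8.66 ± 3.62 RPM, against 33.7 ± 16.9 in cortical bone, 30.8 ± 16.2 in cancellous bone and 15.3 ± 6.94 in lymph node. Sfrp2 and Dkk2 were low everywhere before loading, with means of 4.07 to 6.72 RPM and 1.21 to 6.03 RPM over the 4 tissues, and neighbours overlapped at each step. Most of what follows concerns cartilage, the tissue in which the 8 genes moved most often past the test.

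**Figure D1:**
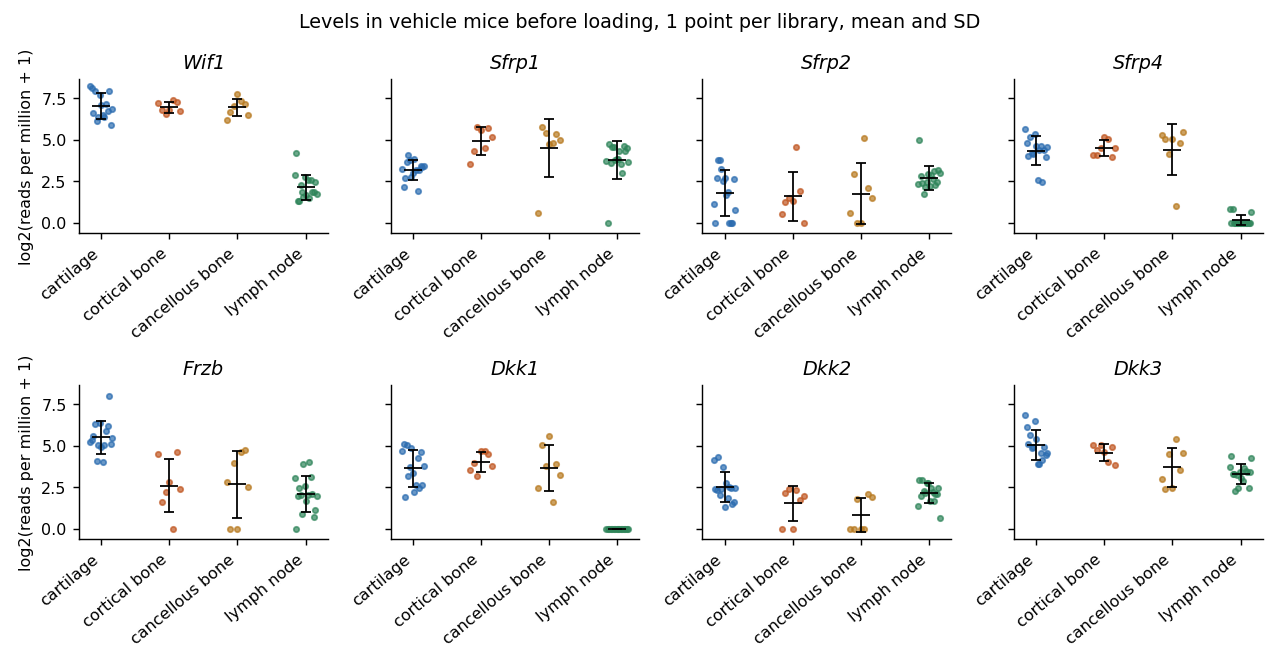
Level of each of the 8 inhibitors in vehicle mice before loading, as log2(RPM + 1) on the y axis, by tissue on the x axis; each point is 1 library (15 cartilage, 7 cortical bone, 7 cancellous bone and 16 lymph node). Sfrp4 and Dkk1 are at or near 0 in lymph node, Wif1 is present there (1.45 to 17.4 RPM) below every skeletal library, and Sfrp1, Sfrp2, Dkk2 and Dkk3 overlap across tissues.

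PTH pretreatment was followed by higher levels of Wif1, Sfrp2, Sfrp4, Dkk1 and Dkk3 in cartilage before any loading. These 5 of 8 were called higher with both limbs together and none was called lower, where 13.8% of all 13925 genes tested were called in either direction. All 8 differences were above 0, with a median of 1.08 on the log2 scale against 0.0309 over all genes. The question the contrast answers is what 8 weeks of PTH left behind in the tissue at the start of loading. Both limbs of a mouse are among the 15 PTH and 15 vehicle libraries.

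Wif1, the ligand-binding inhibitor, ran from 59.5 to 275 normalised counts (median 79.5) in right limbs of vehicle mice (n = 8) and from 107.1 to 678 (median 225) in right limbs of PTH mice (n = 7). In left limbs it ran from 88.2 to 245 (median 188, n = 7) with vehicle and from 136 to 415 (median 254, n = 8) with PTH. PTH libraries were high in both limbs, and the groups overlapped. The log2 difference was 1.01 ± 0.23 (SE; adjusted p = 0.0053, limma).

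Sfrp2, a ligand-binding inhibitor, was near 0 with vehicle, at 0 to 11.1 normalised counts (median 5.12) in right limbs and 0 to 11.6 (median 0.662) in left limbs. With PTH it ran from 6.12 to 41.2 (median 23.3) in right limbs and from 0 to 12.1 (median 4.01) in left limbs. The right PTH limbs held the high values, and the left limbs overlapped almost wholly. The difference over both limbs was 1.61 ± 0.41 (adjusted p = 0.00945). Sfrp4 ran from 4.25 to 46.2 (median 15.4) in right and 4.86 to 36.4 (median 21.0) in left limbs with vehicle. It ran from 9.52 to 184 (median 34.9) and from 17.4 to 115 (median 44.2) with PTH, so that both groups shared the range below 46.2 and some PTH libraries lay well above it. Its difference was 1.16 ± 0.36 (adjusted p = 0.0253). The Sfrp4 call was lost without replicate 2, 10, 12 or 15 (0.97 to 1.1, adjusted p from 0.0535 to 0.0643). Here and below a replicate number is left out at once of every group of the table that holds it. In cartilage before loading, even numbers were left limbs and odd numbers right limbs, so the other limb of the mouse stayed in.

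Dkk1, the Lrp5 and Lrp6 antagonist, ran from 2.36 to 23.1 normalised counts (median 6.22) in right limbs with vehicle and from 10.8 to 82.4 (median 39.7) in right limbs with PTH. Left limbs held 3.47 to 30.4 (median 21.6) and 9.34 to 36.3 (median 25.9). The groups were well apart on the right, with some overlap, and nearly level on the left. Over both limbs the difference was 1.27 ± 0.30 (adjusted p = 0.0058). Dkk3 ran from 12.6 to 106.8 (median 25.9) in right and 13.9 to 81.3 (median 27.2) in left limbs with vehicle. With PTH it ran from 41.5 to 141 (median 79.1) and from 32.1 to 227 (median 66.8), higher on both sides with overlap, and the difference was 1.28 ± 0.29 (adjusted p = 0.00477).

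Frzb (0.88 ± 0.31, adjusted p = 0.0527), Dkk2 (0.89 ± 0.37, adjusted p = 0.102) and Sfrp1 (0.17 ± 0.37, adjusted p = 0.809) were not called. Frzb medians were 34.1 and 49.7 normalised counts in right and left limbs with vehicle and 78.7 and 65.4 with PTH, in overlapping ranges. Sfrp1 was the one gene of the 8 whose difference was smaller than its SE.

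**Figure D2:**
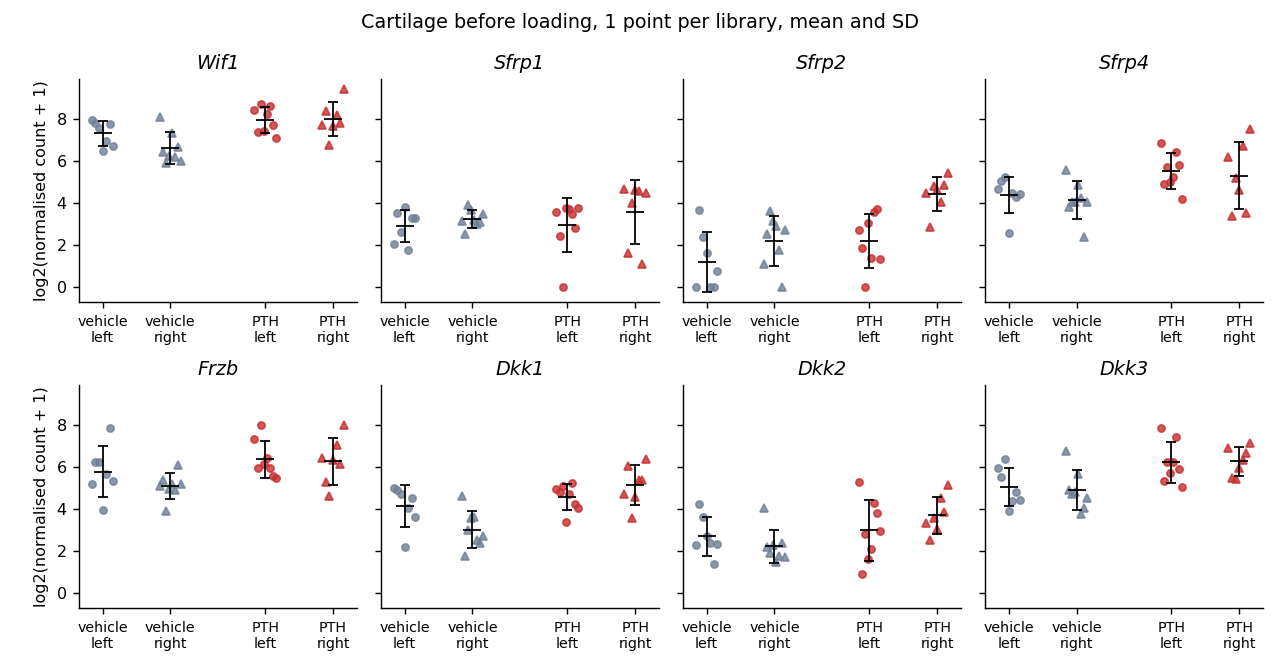
Normalised counts of the 8 inhibitors in cartilage before loading, as log2(normalised count + 1) on the y axis, for left and right limbs of vehicle mice (7 and 8 libraries) and PTH mice (8 and 7 libraries); each point is 1 library. PTH libraries sit higher than vehicle libraries for Dkk1 and Sfrp2 mainly in the right limb, and for Wif1 and Dkk3 in both limbs. For Wif1 the gap is wider on the right, where vehicle libraries are low. The difference between limbs in the PTH effect was called for no gene by limma.

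Taken alone, the right limbs gave calls for Wif1 (1.39 ± 0.33, adjusted p = 0.00642), Sfrp2 (2.23 ± 0.57, adjusted p = 0.0112), Dkk1 (2.13 ± 0.42, adjusted p = 0.00168), Dkk2 (1.5 ± 0.52, adjusted p = 0.0491) and Dkk3 (1.39 ± 0.41, adjusted p = 0.0229). That is 5 of 8, where 13% of genes were called. The left limbs alone gave none of 8 by limma, with 2 at an unadjusted p under 0.05, where 0.00718% of genes were called (1460 at an unadjusted p under 0.05). Dkk3 there had a difference of 1.17 ± 0.41 (adjusted p = 0.334). The difference between limbs in the PTH effect was itself tested, and it was called for no gene by limma (0% called; 1261 genes and 1 of the 8 at an unadjusted p under 0.05). The largest size among the 8 was for Dkk1, left minus right, at -1.71 ± 0.59 (adjusted p = 0.394).

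The PTH result depended on depth. When the 2 cartilage libraries under 100000 reads (3630 and 52539 reads) were kept in, 0 of the 8 genes were called by limma and 0.309% of all genes were. The quasi-likelihood test of edgeR on the recovered reads, without those libraries, called 6 of 8 with TMM scaling and 7 of 8 with the authors' scaling.

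Markers of other cells moved in the same contrast. Of the fibroblast list 4 of 7 tested genes rose, with sums of 2133 to 16170 normalised counts (median 7141) with PTH and 927 to 9219 (median 2295) with vehicle. Of the osteoblast and osteocyte list 9 of 11 rose, of the chondrocyte list 3 of 10, of the adipocyte list 6 of 7 and of the endothelial list 1 of 7. All 8 of the neutrophil and myeloid precursor list fell, with sums of 3281 to 36080 against 18170 to 68010 with vehicle, and 3 of 4 erythroid genes fell. None of 10 muscle or 7 lymphocyte genes was called by limma. The part of these lists in the result was not tested.

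Other genes of the Wnt pathway were counted in lists chosen with earlier results of these data known, and each count is to be read beside the 13.8% of all genes called. Of 21 receptors and co-receptors 9 were called higher and none lower, among them the receptors Fzd6 (1.57) and Fzd8 (1.23), the Wnt-binding kinase-like receptor Ryk (0.84) and the co-receptor Lrp6 (0.66). Of 13 ligands and helpers 3 were higher: Rspo2 (1.58), which enhances Wnt signalling, the ligand Wnt10b (0.78) and the Wnt transporter Wls (0.53). Of 13 target genes 3 were higher, namely Tnfrsf11b (1.00), which encodes the osteoclast inhibitor osteoprotegerin, Wisp1 (0.96) and the cyclin gene Ccnd1 (0.55). Of 10 other inhibitors 1 was higher, a share below that of all genes, namely Sost (1.18 ± 0.29, adjusted p = 0.00742), the osteocyte inhibitor of Lrp5 and Lrp6. Of 13 intracellular components 3 were higher: the transcription factors Tcf7l1 (1.00) and Tcf7l2 (0.64) and the β-catenin co-factor Bcl9l (0.77).

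Outside cartilage the same contrast called none of 22 tests of the 8 genes by limma, where 0.202% of tests over all genes were called (0.00703% in cortical bone, 0% in cancellous bone and 0.617% in lymph node). The test of edgeR called none with either scaling. Sfrp4 and Dkk1 were too low in lymph node to be tested. In cortical bone Wif1 had a log2 difference of 0.65 ± 0.29 (adjusted p = 1), and in cancellous bone Dkk1 had 0.84 ± 0.63 (adjusted p = 0.917). In lymph node Frzb ran from 1.47 to 19.9 normalised counts (median 4.15) in right and 0 to 10.3 (median 4.07) in left nodes with vehicle. With PTH it ran from 4.89 to 30.1 (median 13.3) and 4.04 to 13.8 (median 10.4), with overlap on both sides, and the difference of 1.09 ± 0.33 was not called (adjusted p = 0.0976).

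Loading was followed by higher Dkk3 and Sfrp2 in cartilage at both times and by higher Sfrp1 and lower Sfrp4 at 1 week. Averaged over the 4 treatments, 4 of 8 genes were called at 1 week (24.6% of all genes) and 2 of 8 at 2 weeks (21.2%). The share of genes called was high, and 2 of 8 lies near it. Dkk3 had the largest called difference of the 8 at 1 week and the next after Sfrp2 at 2 weeks. It was 2.36 ± 0.24 at 1 week (adjusted p = 3.8e-12) and 2.45 ± 0.28 at 2 weeks (adjusted p = 1.13e-09). The left and right limbs come from the same mice. Loading was always on the left, so side and loading cannot be told apart within these weeks. Before loading, left against right cartilage called 0% of 13925 genes by limma, with 1 of the 8 at an unadjusted p under 0.05.

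Dkk3, in vehicle mice, ran from 225 to 477 normalised counts (median 251, n = 7) in loaded limbs and from 45.4 to 158 (median 111.3, n = 7) in contralateral limbs at 1 week. In PTH mice it ran from 130.0 to 602 (median 350.4) against 62.7 to 143 (median 106.9, 8 libraries each). In alendronate mice it ran from 111.5 to 904 (median 498) against 21.5 to 104.8 (median 60.2, 8 libraries each). Only the PTH mice had overlapping ranges among these 3 treatments. In PTH-alendronate mice it ran from 135 to 470.1 (median 334, n = 7) against 0 to 116 (median 36.2, n = 6), with no overlap.

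The test called Dkk3 in PTH mice (1.67 ± 0.45, adjusted p = 0.0271), alendronate mice (2.65 ± 0.45, adjusted p = 2.79e-05) and PTH-alendronate mice (3.52 ± 0.51, adjusted p = 1.24e-06). In vehicle mice the difference of 1.6 ± 0.48 was not called (adjusted p = 0.0893), although the ranges did not overlap. In PTH mice the Dkk3 call was lost without replicate 1, 3, 4 or 5 (1.55 to 1.66, adjusted p from 0.0615 to 0.09). These single-treatment contrasts called 2.99%, 6.42%, 10.4% and 1.3% of all genes, in that order. Of the mice with both limbs, 28 of 28 had more Dkk3 in the loaded limb.

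At 2 weeks Dkk3 ran from 95.2 to 659.8 (median 237) in loaded and 17.0 to 93.6 (median 42.7) in contralateral limbs of vehicle mice (8 libraries each). In PTH mice it ran from 37.7 to 704 (median 293) against 14.9 to 80.6 (median 31.6, 8 libraries each). The vehicle groups just missed each other, and the PTH groups overlapped through 1 low loaded limb. That limb, left replicate 6, was among the libraries high in lymphocyte genes, and the other loaded limbs of PTH mice held 239 to 704. In alendronate mice loaded limbs ran from 226 to 833 (median 345, n = 5) and contralateral limbs from 43.8 to 130.0 (median 82.7, n = 6), with no overlap. In PTH-alendronate mice they ran from 154 to 1332 (median 510.0, n = 7) against 49.0 to 1404 (median 64.2, n = 4), where 1 contralateral library held more than any loaded one.

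Dkk3 was called at 2 weeks in vehicle mice (2.58 ± 0.50, adjusted p = 0.00117; 1.37% of genes called), PTH mice (3.10 ± 0.50, adjusted p = 2.6e-05; 4.71%) and alendronate mice (2.36 ± 0.61, adjusted p = 0.0129; 6.24%). In PTH-alendronate mice Dkk3 was not called by limma (1.77 ± 0.63, adjusted p = 0.23, with 0.593% of genes called). Without the 1 contralateral library that stood apart the difference was 2.91. That library was picked by its high Dkk3, so leaving it out was bound to raise the difference and gives no further call. Without replicate 3 the alendronate call was lost (1.93, adjusted p = 0.0527). The call in PTH mice was kept in all 19 alternative fits, among them the one without the libraries high in lymphocyte genes. The loaded limb was the higher in 23 of 24 mice.

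**Figure D3:**
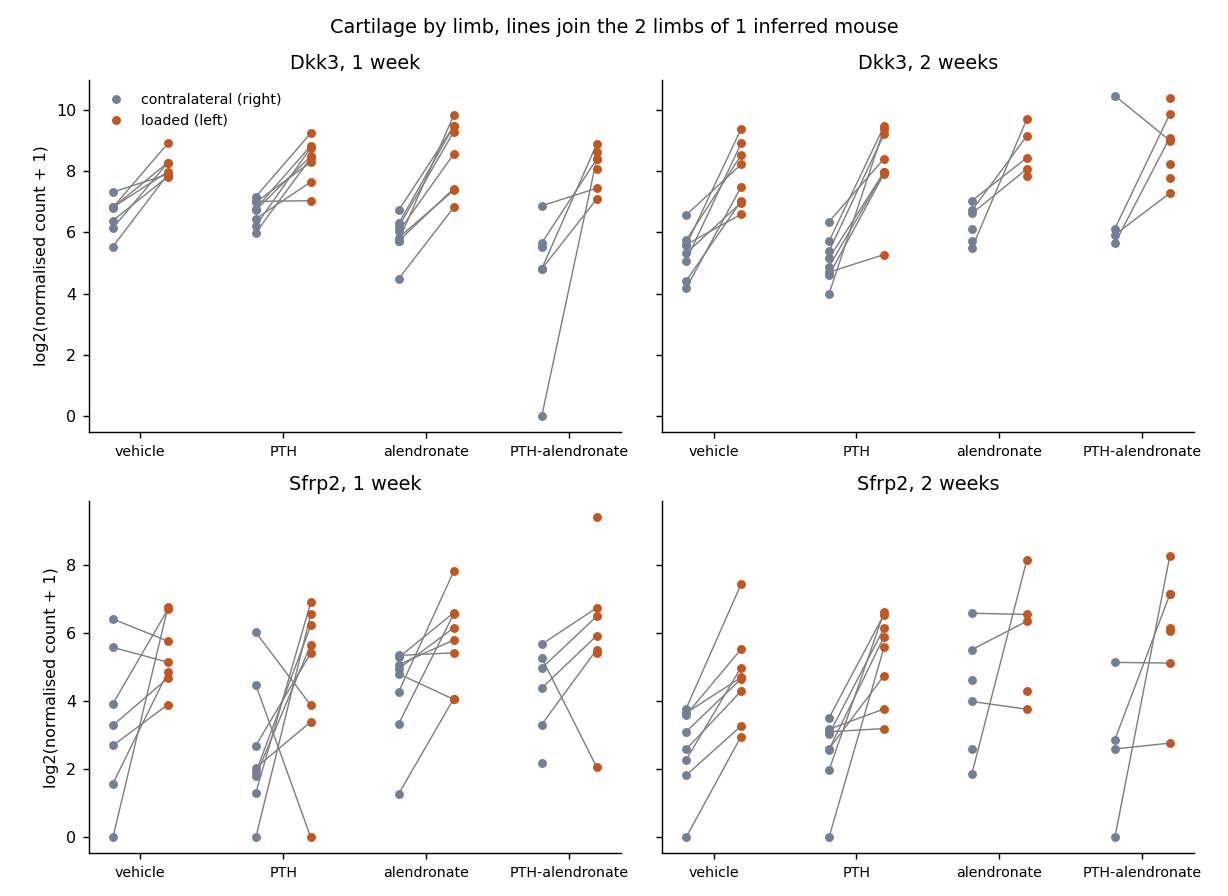
Dkk3 and Sfrp2 in cartilage of individual mice at 1 and 2 weeks, as log2(normalised count + 1) on the y axis. The x axis holds the right (contralateral) and left (loaded) limb of each treatment. Each grey line joins the limbs of 1 mouse inferred from the title codes, and points are coloured by limb. Dkk3 rises along every line at 1 week (28 of 28) and along 23 of 24 at 2 weeks, and Sfrp2 along 22 of 28 and 21 of 24.

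Sfrp2 came from low contralateral levels. At 1 week loaded limbs ran from 14.0 to 107.3 normalised counts (median 34.5) against 0 to 84.5 (median 8.81) in vehicle mice. In PTH mice they ran from 0 to 119 (median 45.8) against 0 to 64.004 (median 2.95). Both treatments overlapped widely. In alendronate mice they ran from 15.6 to 225 (median 62.6) against 1.43 to 39.7 (median 28.6), and in PTH-alendronate mice from 3.18 to 682 (median 59.96) against 3.57 to 50.1 (median 25.2), again with overlap. No treatment alone called Sfrp2 at 1 week (2.04, 2.23, 1.51 and 1.59 in vehicle, PTH, alendronate and PTH-alendronate mice; adjusted p from 0.124 to 0.342). The average did, at 1.84 ± 0.43 (adjusted p = 0.000669).

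At 2 weeks Sfrp2 ran from 6.80 to 173 (median 24.6) against 0 to 12.7 (median 6.30) in vehicle mice and from 8.18 to 96.7 (median 52.7) against 0 to 10.4 (median 6.11) in PTH mice. Ranges overlapped only at their edges. In alendronate mice they were 12.6 to 285 (median 80.8) against 2.67 to 95.1 (median 19.4), and in PTH-alendronate mice 5.83 to 308 (median 69.6) against 0 to 34.3 (median 5.69). The test called PTH mice (2.82 ± 0.71, adjusted p = 0.0103) and PTH-alendronate mice (3.44 ± 0.89, adjusted p = 0.0487), not vehicle mice (2.13 ± 0.71, adjusted p = 0.129) or alendronate mice (1.63 ± 0.86, adjusted p = 0.261). The Sfrp2 call in PTH mice was lost without replicate 3 (2.56, adjusted p = 0.0577). That in PTH-alendronate mice was lost without any 1 of 7 replicates, 1 to 4 and 6 to 8 (2.19 to 4.43, adjusted p from 0.0545 to 0.272). The average was 2.50 ± 0.40 (adjusted p = 3.15e-06).

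Sfrp1, whose loss in mice raises trabecular bone mass, rose at 1 week. In alendronate mice it ran from 4.98 to 159 normalised counts (median 79.1) in loaded and 2.87 to 20.9 (median 12.9) in contralateral limbs. In vehicle mice it ran from 8.86 to 61.8 (median 18.3) against 0 to 17.1 (median 7.71). Both overlapped. In PTH mice it ran from 7.54 to 25.6 (median 16.01) against 4.43 to 37.4 (median 9.58), and in PTH-alendronate mice from 4.17 to 134 (median 16.4) against 0 to 51.2 (median 9.67), with wide overlap. The loaded limb was the higher in all 8 alendronate and all 7 vehicle mice, 6 of 8 PTH mice and 2 of 5 PTH-alendronate mice, 23 of 28 in all. In PTH and PTH-alendronate mice the differences of 0.43 ± 0.62 (adjusted p = 0.802) and 1.23 ± 0.70 (adjusted p = 0.275) were not called. The alendronate contrast was called (2.10 ± 0.62, adjusted p = 0.0276), the vehicle contrast was not (1.86 ± 0.67, adjusted p = 0.187), and the average was 1.4 ± 0.33 (adjusted p = 0.000742). The Sfrp1 call in alendronate mice was lost without replicate 2, 3, 5, 7 or 8 (1.72 to 2.10, adjusted p from 0.0545 to 0.161). At 2 weeks the average of Sfrp1 was 0.79 ± 0.34 (adjusted p = 0.0904), with the loaded limb higher in 14 of 24 mice.

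Sfrp4 went the other way at 1 week. In alendronate mice it ran from 36.8 to 68.3 (median 43.2) in loaded and 50.2 to 162 (median 88.1) in contralateral limbs, and in vehicle mice from 42.9 to 84.0 (median 54.6) against 16.9 to 166 (median 82.1). Medians were lower in the loaded limb and ranges overlapped, and the loaded limb was the higher in 5 of 28 mice. The average was -0.66 ± 0.24 (adjusted p = 0.0303), and no treatment alone was called at 1 week. This Sfrp4 call was lost without replicate 1, 2, 4, 5 or 7 (-0.47 to -0.69, adjusted p from 0.0509 to 0.129). At 2 weeks the average was -0.57 ± 0.28 (adjusted p = 0.142), with 7 of 24 mice higher in the loaded limb.

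Frzb, the chondrocyte inhibitor, was called higher in 2 of the 8 single contrasts, PTH-alendronate mice at 1 week and PTH mice at 2 weeks. In the first it ran from 75.4 to 273 (median 151) in loaded and 17.2 to 108 (median 58.4) in contralateral limbs (1.5 ± 0.39, adjusted p = 0.00715). In the second it ran from 36.8 to 273 (median 133) against 9.50 to 96.2 (median 53.9), a difference of 1.31 ± 0.37 (adjusted p = 0.027). Ranges overlapped in both. In PTH mice at 1 week it ran from 35.8 to 251 (median 134) in loaded and 37.4 to 296 (median 232) in contralateral limbs, and none of 8 mice had more in the loaded limb. That difference was -0.51 ± 0.35 (adjusted p = 0.496). Over all treatments the loaded limb was the higher in 15 of 28 mice at 1 week and 19 of 24 at 2 weeks. The first Frzb call was lost without replicate 3 (1.2, adjusted p = 0.0634), and the second without replicate 1, 2 or 5 (1.15 to 1.24, adjusted p from 0.076 to 0.144). Its average was 0.37 ± 0.18 (adjusted p = 0.137) at 1 week and 0.54 ± 0.21 (adjusted p = 0.0571) at 2 weeks.

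Dkk1 values were low in the loaded limbs of vehicle and alendronate mice at 2 weeks. In vehicle mice it ran from 3.44 to 18.1 normalised counts (median 11.3) in loaded and 20.4 to 32.8 (median 27.7) in contralateral limbs, with no overlap, and none of the 8 mice had more in the loaded limb. In alendronate mice it ran from 0 to 25.8 (median 14.3) against 31.9 to 78.2 (median 47.5), again apart, with none of 4 mice higher in the loaded limb. The test called the second (-2.27 ± 0.71, adjusted p = 0.0435) and not the first (-1.35 ± 0.59, adjusted p = 0.322). The Dkk1 call was lost without any 1 of replicates 1, 2, 3, 6 and 7 (-1.55 to -2.29, adjusted p from 0.0503 to 0.242). In mice that had received PTH the limbs overlapped, with medians of 20.7 against 15.7 in PTH mice and 16.3 against 19.6 in PTH-alendronate mice. The averages were -0.53 ± 0.31 (adjusted p = 0.218) at 1 week and -0.74 ± 0.33 (adjusted p = 0.105) at 2 weeks.

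Dkk2 was called in no single loading contrast and in neither average by limma (0.48 ± 0.38, adjusted p = 0.403, and 0.74 ± 0.34, adjusted p = 0.12). Wif1 was called in none either, with averages of -0.24 ± 0.20 (adjusted p = 0.427) and -0.17 ± 0.24 (adjusted p = 0.661). Its loaded limb was the higher in 7 of 28 and 8 of 24 mice.

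**Figure D4:**
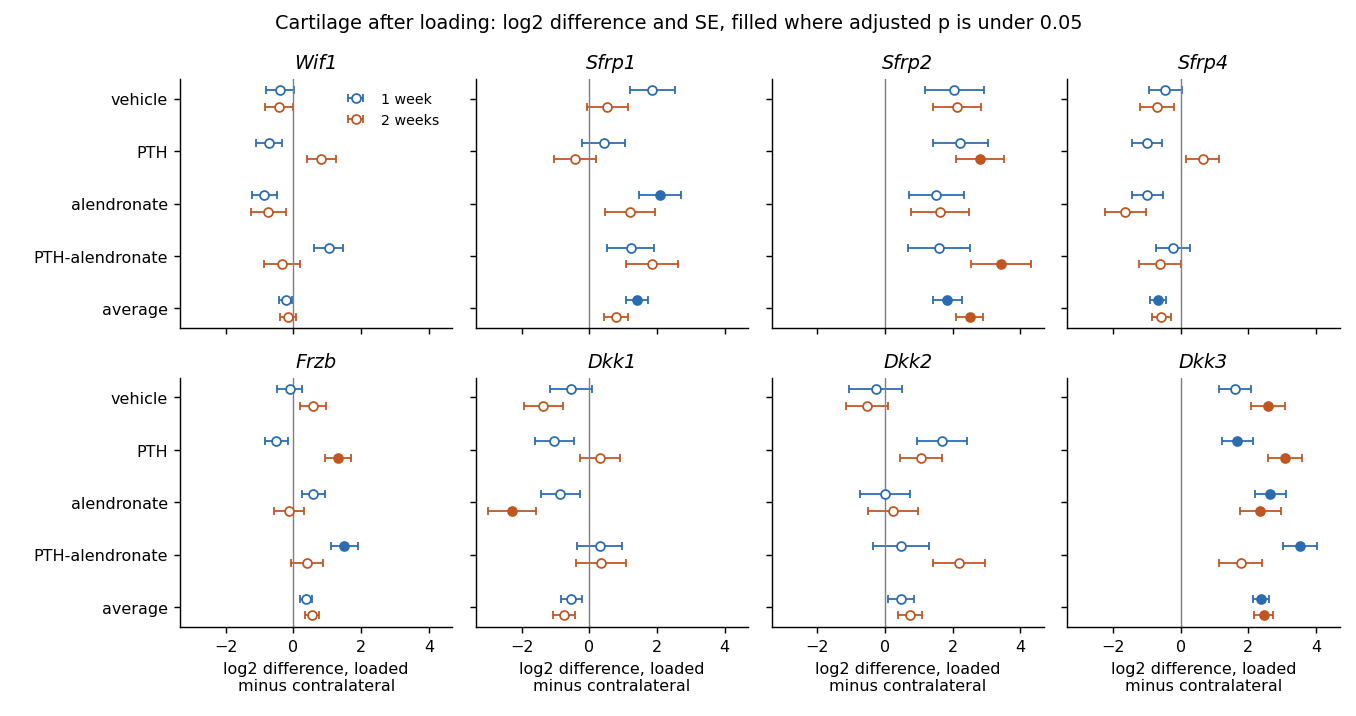
Log2 difference of loaded left minus contralateral right cartilage, with bars of 1 SE, for each of the 8 inhibitors in each treatment and for their average, at 1 week (blue) and 2 weeks (orange); filled points have an adjusted p under 0.05. Dkk3 and Sfrp2 lie above 0 in every treatment at both times, and Sfrp4 and Dkk1 mostly below.

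Several of these results changed without the 7 libraries that were high in lymphocyte genes. At 1 week the average then called 5 of 8 genes (28.2% of all genes), with Wif1 now lower in the loaded limb (-0.46, adjusted p = 0.0055). At 2 weeks it called 6 of 8 (26.2% of all genes): Sfrp1 (0.87, adjusted p = 0.0409) and Dkk2 (0.87, adjusted p = 0.0421) higher and Sfrp4 (-0.83, adjusted p = 0.00116) and Dkk1 (-0.86, adjusted p = 0.0143) lower were added to Dkk3 and Sfrp2. In PTH mice at 1 week Sfrp2 was added (3.18, adjusted p = 0.00932), and at 2 weeks Frzb was no longer called (0.81, adjusted p = 0.21). In alendronate mice, who held none of these libraries, Wif1 at 1 week (-0.86, adjusted p = 0.015) and Sfrp4 at 2 weeks (-1.64, adjusted p = 0.00813) were then called, with the differences themselves unchanged.

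Cell markers moved with loading too. Of the chondrocyte list 10 of 11 genes rose at both times, with sums of 3906 to 48780 normalised counts in loaded and 3240 to 29220 in contralateral limbs at 1 week, and 5416 to 75040 against 708 to 105000 at 2 weeks. Of the fibroblast list 5 of 7 rose and 1 fell at both times (4751 to 49520 against 3478 to 24110, and 4844 to 57080 against 1708 to 21890). Of the osteoblast list 3 of 11 rose at 1 week, and 4 rose and 1 fell at 2 weeks. Adipocyte genes fell in 7 of 7 and 6 of 7 cases, neutrophil genes in 6 of 8 at both times, erythroid genes in 4 of 4 at both times and lymphocyte genes in 2 of 7 at both times. All 10 muscle genes fell at 1 week, and none was called by limma at 2 weeks. Endothelial genes went both ways, with 3 up and 2 down of 7, then 1 up and 1 down. The part of these lists in the results was not tested.

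Other genes of the Wnt pathway are to be read beside the 24.6% and 21.2% of all genes called at 1 and 2 weeks. The counts of ligands and of intracellular components lie near those shares, as does that of the other inhibitors at 1 week. Of the receptors and co-receptors 9 of 20 rose at 1 week and 9 of 21 at 2 weeks, with none lower, among them the Wnt5a receptor Ror2 (1.44 and 1.68), the Dkk1 receptor Kremen1 (1.01 and 1.28) and Ryk (0.79 and 0.80). Of 18 ligands and helpers 4 rose and 1 fell at 1 week and 5 rose and 1 fell at 2 weeks, including the ligand Wnt5a (1.33 and 1.23), Rspo2 (1.19 and 1.06) and Wls (0.70 and 0.96). Of 14 targets 5 rose at each time, and 1 fell at 2 weeks. Those that rose included the matricellular genes Wisp1 (1.38 and 1.25) and Wisp2 (2.30 and 2.04) and the AP-1 gene Fosl1 (2.26 and 1.65). Of 11 other inhibitors 2 rose at each time, Igfbp4 (0.49 and 0.60) and Trabd2b (1.41 and 1.08), a protease that inactivates Wnt ligands. Sfrp5 fell at 1 week (-0.97), and 3 of the 11 fell at 2 weeks, including Dkkl1 (-1.12) and Sost (-0.69). Of the intracellular components 4 of 13 rose at 1 week and 4 of 14 at 2 weeks.

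Whether a treatment changed the response to loading was tested directly in all tissues at both times. None of 180 tests of the 8 genes was called by limma, where 0.00304% of tests over all genes were (19371 of 361869 at an unadjusted p under 0.05). A call in 1 treatment and not in another, as for Dkk1 in alendronate mice, is therefore not shown to differ between treatments. Compared with vehicle in the same limb, PTH, alendronate and their sequence gave 4 calls in 360 tests of these genes, all higher, against 1.66% of tests over all genes.

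Of those 4 calls, 2 concerned Dkk2 in loaded cartilage at 2 weeks. Dkk2 ran from 2.45 to 78.8 normalised counts (median 47.6) in alendronate mice and from 11.8 to 53.6 (median 34.7) in PTH-alendronate mice. In vehicle mice it ran from 1.36 to 22.0 (median 3.38), and in PTH mice from 0 to 23.2 (median 11.3). The alendronate groups were high, with overlap. The differences from vehicle were 2.33 ± 0.70 (adjusted p = 0.0244; 10.5% of genes called) and 2.59 ± 0.64 (adjusted p = 0.0131; 3.31%), and the 2 contrasts share the vehicle libraries. The first Dkk2 call was lost without replicate 1 or 2 (1.92 and 2.08, adjusted p = 0.125 and 0.105), and the second without replicate 7 (2.45, adjusted p = 0.0605). In this tissue and week the mice given alendronate carry title codes of another series (with a letter) than the others, so code series and alendronate cannot be told apart. The medians over all genes were -0.176 and -0.0844.

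The other 2 concerned Frzb at low levels. In contralateral cortical bone at 1 week it was 22.4, 11.5, 6.68, 8.38 and 1.73 in the 5 alendronate libraries and 0.707 to 9.70 (median 5.37, n = 6) in vehicle libraries. The groups overlapped, and the difference of 3.31 ± 0.72 (adjusted p = 0.00755; 8.72% of genes called) came from a fit with a term for the code series. Without that term it was 0.99 (adjusted p = 0.731). Of the 5 alendronate libraries 4 carry letter codes and all 6 vehicle libraries number codes, so the contrast within number codes rests on 1 alendronate library, that at 22.4. Without replicate 2 the Frzb call was lost too (2.95, adjusted p = 0.0556). In left lymph nodes at 2 weeks it ran from 2.02 to 181 (median 7.05) with alendronate and 2.56 to 6.18 (median 3.74) with vehicle, with overlap. That difference was 1.31 ± 0.50 (adjusted p = 0.0428; 29% of genes called), and there too alendronate follows the code series. That Frzb call was lost without replicate 4, 5, 6, 7 or 8 (0.75 to 1.44, adjusted p from 0.0526 to 0.207). Depths of these left nodes with alendronate went down to 153802 reads, against a median of 1716571 in lymph node at 2 weeks. The part of depth in the highest Frzb value was not tested.

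In cortical bone the pair that rose in loaded cartilage, Sfrp2 and Dkk3, was also called at 1 week. In PTH mice Sfrp2 was 50.4, 60.2, 27.4, 31.7 and 24.6 normalised counts in the 5 loaded limbs and 2.29, 2.01, 1.49, 2.61 and 2.57 in the 5 contralateral limbs. Dkk3 was 57.96, 95.4, 54.7, 67.7 and 22.2 against 11.8, 10.1, 6.94, 9.14 and 15.8. Neither gene overlapped between limbs. The differences were 3.56 ± 0.76 for Sfrp2 and 2.28 ± 0.49 for Dkk3 (adjusted p = 0.0253 for both), 2 of 8 genes where 0.325% of all genes were called. The Dkk3 call was lost without any 1 of replicates 1 to 5 (1.93 to 2.36, adjusted p from 0.0729 to 0.4). The Sfrp2 call was lost without any 1 of replicates 2 to 5 (3.30 to 3.71, adjusted p from 0.081 to 0.336).

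In vehicle mice Sfrp2 was 6.31, 95.3 and 45.1 in the 3 loaded limbs and 0 to 15.4 (median 2.78, n = 6) in contralateral limbs. Dkk3 was 28.8, 135 and 53.7 against 5.05 to 39.5 (median 21.3). In both genes 1 loaded library fell among the contralateral ones, and neither was called by limma (Sfrp2 3.06, adjusted p = 0.167; 0.0982% of genes called), while edgeR with TMM scaling called both. In alendronate mice none of the 8 was called (0%; 1707 genes at an unadjusted p under 0.05), nor in PTH-alendronate mice, who had 1 loaded library (0.0491%). The average over treatments called Sfrp2 (2.85 ± 0.48, adjusted p = 0.00106) and Dkk3 (1.41 ± 0.31, adjusted p = 0.0177), where 0.595% of genes were called. For Dkk3 this call was lost without replicate 2, 3 or 4 (1.24 to 1.33, adjusted p from 0.0994 to 0.117).

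With the 9 cortical libraries under 100000 reads kept in, neither gene was called in PTH mice (Sfrp2 3.62, adjusted p = 0.484; Dkk3 1.3, adjusted p = 1) or in the average (Sfrp2 1.59, adjusted p = 0.118; Dkk3 0.10, adjusted p = 0.912). In the average contrast 2 of 7 fibroblast genes and 1 of 11 chondrocyte genes rose. The fibroblast sums were 283 to 8803 in loaded and 435 to 1503 in contralateral limbs, and their part in the result was not tested. Of 21 receptors 1 rose, Ror2 (1.13, adjusted p = 0.0438).

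**Figure D5:**
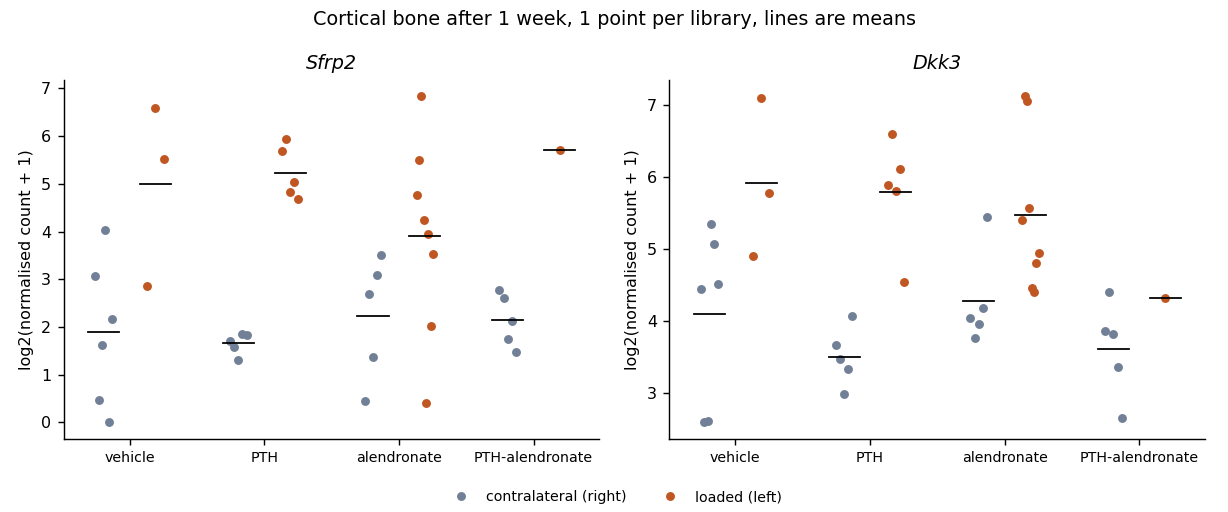
Sfrp2 and Dkk3 in cortical bone at 1 week, as log2(normalised count + 1) on the y axis, for contralateral and loaded limbs of each treatment on the x axis; points are libraries of at least 100000 reads and horizontal lines are group means. Loaded limbs of PTH mice lie above all contralateral limbs of PTH mice for both genes, and PTH-alendronate mice have 1 loaded library.

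At 2 weeks the loading average in cortical bone called none of the 8 genes by limma (0.283% of all genes called; 2 of the 8 at an unadjusted p under 0.05), and edgeR called 2 with either scaling. Sfrp2 had a difference of 1.37 ± 0.42 (adjusted p = 0.158) and Dkk3 of 0.33 ± 0.35 (adjusted p = 0.769). Single treatments called none in 32 tests by limma (0.0132% over all genes), and edgeR called 2 in vehicle mice. Leaving out the vehicle library that stood apart left these counts at 0.

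Cancellous bone gave no call for any of the 8 genes. The loading average called none by limma or edgeR at 1 week (0.00622% of all genes) or 2 weeks (0%), and none of 64 tests in single treatments was called by limma (0.0105% over all genes; 5209 tests at an unadjusted p under 0.05). Wif1 had averages of -0.59 ± 0.28 (adjusted p = 1) and -0.48 ± 0.30 (adjusted p = 0.83), and Dkk3 of -0.91 ± 0.57 (adjusted p = 1) and -0.24 ± 0.47 (adjusted p = 0.955). At 1 week 14 of the 45 cancellous libraries were under 100000 reads, and the PTH-alendronate mice had 1 loaded library left.

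In the inguinal lymph nodes of the loaded against the other side, none of 48 tests in single treatments was called by limma (0% over all genes; 11438 tests at an unadjusted p under 0.05). At 1 week the average called none by limma or edgeR (0%). The edgeR test called 3 of the 8 in vehicle mice at 1 week, the contrast that holds the library with bone and cartilage markers, and limma called none with or without that library. At 2 weeks Sfrp2 ran from 3.09 to 11.2 normalised counts (median 5.29, n = 7) on the loaded and 11.0 to 55.8 (median 14.0, n = 6) on the other side of vehicle mice. Medians on the loaded side were also the lower in PTH mice (7.92 against 12.0), alendronate mice (6.75 against 8.53) and PTH-alendronate mice (6.02 against 8.88), in overlapping ranges. The average called Sfrp2 lower on the loaded side (-0.81 ± 0.21, adjusted p = 0.0235; 6.34% of all genes), the opposite direction from cartilage. Without vehicle right replicate 5, the library with high neutrophil and chondrocyte lists and Sfrp2 at 22.2, it was -0.79 (adjusted p = 0.03). That Sfrp2 call was lost without any 1 of replicates 2, 3, 6 or 7 (-0.67 to -0.89, adjusted p from 0.0528 to 0.0984). Dkk1 had no read in all 32 lymph node libraries before loading and all 58 at 2 weeks, and at 1 week in 43 of 44.

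Over the 143 cartilage libraries, centred within each week, the 8 genes resembled partly different partners. Sfrp1 and Sfrp2 shared Igf1, and Wif1 and Dkk1 shared Mepe. The measure is Pearson's r of log2(normalised count + 1) over 13751 genes, a description of points that share their library and depth, with limbs of 1 mouse among them. The libraries high in lymphocyte genes, in which Wif1 was low, are included, and r was not computed without them. Differences between treatments and between limbs were not removed, so genes that moved together in those contrasts share them in r. Dkk3 was most like the fibrous matrix genes Lum (0.902), Mmp2 (0.895) and Pcolce (0.894). Wif1 was most like Clec3a (0.866), 1500015O10Rik (0.852) and Mepe (0.820), and Dkk1 like Cd200 (0.725), Mepe (0.695) and Wif1 itself (0.688). Sfrp2 was most like Igf1 (0.732), Col4a1 (0.719) and Ogn (0.709).

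Sfrp4 was most like Chad (0.710), Pcsk6 (0.709) and Cilp (0.671), and Frzb like Smoc2 (0.741), Col27a1 (0.740) and Fibin (0.730). Sfrp1 (Igf1, 0.593) and Dkk2 (Map1b, 0.585) had weaker best partners. Among the 8 genes themselves Wif1 went with Dkk1 (0.688), Frzb (0.625) and Sfrp4 (0.606), and Sfrp2 with Dkk3 (0.519) and Sfrp1 (0.494). Dkk1 and Dkk3 were unrelated in these libraries (-0.0329).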

How the data were processed

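The deposited values are a normalised signal, the authors' normalised read counts, in 12 tables (4 tissues at 0, 1 and 2 weeks) that the authors scaled separately. The submitters' processing notes name Trimmomatic 0.39, STAR and edgeR as tools and mm10 as the build. Every value of a library is a whole multiple of 1 step (100% within 0.01 of a whole number), so whole reads were recovered by division. RPM is per 1000000 recovered reads of named genes. The 27 of 23412 entries without a gene name (at most 0.159% of reads) and 28 libraries under 100000 reads were left out, so the lowest depth kept was 127524 reads.

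The main test was the moderated one of limma 3.58.1 (R 4.3.3) for log2(value + 1), genes being kept at a CPM of 1 in as many libraries as the smallest group, all groups of a table in 1 fit, and the inferred animal as a random block (statmod 1.5.0, 2000 genes). Bone at 1 and 2 weeks had a term for the code series of the titles. No pair of libraries agreed within sampling noise (lowest chi-square per degree of freedom 3.754). In cartilage the replicate numbers match the inferred animals for 28 of 29 limb pairs after 1 week of loading and 25 of 25 after 2 weeks. The titles give treatment, tissue, replicate number, limb and code. They do not name the mouse or say whether samples were pooled. The same steps were tested on simulated data. EdgeR 4.0.16 was an alternative on recovered reads. All 8 genes are named wherever tested; of each Wnt list up to 4 genes of smallest p are named, and for each of the 8 up to 3 genes of highest correlation. The genes and all lists were chosen with earlier results of these data known.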

Additional observations from a re-analysis of the deposited data

Results flagged for a closer look

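Of 160 cartilage groups of 4 to 10 libraries examined for the 8 genes, 23 had 1 library set apart from the rest by Dixon's criterion, where chance flags about 1 in 20 groups. Before loading these were Sfrp1 in PTH left replicate 6 (0 normalised counts, next 4.32), Sfrp4 in vehicle left replicate 10 (4.86, next 18.4) and Dkk2 in vehicle right replicate 1 (15.4, next 4.25).

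At 1 week the low Wif1 libraries were vehicle right replicate 6 (56.8), PTH right replicate 6 (76.5), PTH left replicate 6 (62.2) and PTH-alendronate right replicate 3 (25.4), the same 4 libraries that were high in lymphocyte genes. In 3 of those libraries other inhibitors were set apart by the same criterion: Sfrp4 in vehicle right replicate 6 (16.9), Sfrp4 and Frzb in PTH right replicate 6 (14.2 and 37.4), and Frzb and Dkk1 in PTH left replicate 6 (35.8 and 0). In the fourth, PTH-alendronate right replicate 3, Sfrp4 (10.5, others 35.2 to 82.8), Frzb (17.2, others 44.5 to 108), Dkk1 (8.97, others 17.9 to 66.8) and Dkk2 (0, others 1.17 to 34.6) were also below every other library of the group, without meeting the criterion. The summed lymphocyte lists of these libraries were 1436, 1341, 1569 and 1823, and their part in these values was not tested.

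The other libraries apart at 1 week were Sfrp4 in PTH-alendronate left replicate 2 (2.18), Frzb in vehicle right replicate 5 (290, next 95.5) and Dkk1 in vehicle left replicate 7 (0, next 17.6). For Dkk3 they were vehicle left replicate 5 (477, next 310), alendronate right replicate 4 (21.5, next 51.9) and PTH-alendronate right replicate 2 (0, next 27.0). At 2 weeks they were PTH left replicate 6 for Sfrp1 (0) and Dkk3 (37.7, next 239), PTH right replicate 5 for Sfrp2 (0), PTH left replicate 8 for Sfrp4 (19.8) and PTH-alendronate right replicate 3 for Dkk3 (1.4e+03, next 68.7). Of these, PTH left replicate 6 was also high in lymphocyte genes (summed list 1446), and the part of that in its values was not tested.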

How the results depend on the processing

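Over 222 results and 35 settings, no called difference of the 8 genes changed sign. Of alternative values for called differences 517 (83.1%) stayed past the threshold and 16.9% did not, and 97 uncalled ones passed it. Of 8 genes, PTH in cartilage called 5, and it called 0 with shallow libraries or with left limbs alone; PTH in lymph node called 1 with library weights.

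For loading in cartilage at 1 week, a pseudocount of 0.25 left 0 calls in PTH and 1 in alendronate mice. Quantile scaling gave 1 in vehicle mice, library weights gave 2, 2 and 6 in vehicle, PTH and alendronate mice, and edgeR with TMM or the authors' scaling gave 1 in vehicle mice. Without lymphocyte-rich libraries PTH mice had 2. At 2 weeks, calls in vehicle mice were 3 with weights and 2 with edgeR under either scaling. Alendronate mice had 1 with shallow libraries, the pseudocount, no filter, weights and edgeR under either scaling. PTH-alendronate mice had 3 with shallow libraries and 2 without right replicate 3, a library picked by its Dkk3 value. They had 0 with the pseudocount, no filter, quantile scaling, weights, no animal block and edgeR under either scaling. The average called 5 with weights, 4 with edgeR under the authors' scaling and 6 without lymphocyte-rich libraries. In the loaded limb, alendronate against vehicle had 0 with the pseudocount and 2 with weights. PTH-alendronate against vehicle had 2 with weights, with edgeR under either scaling and without lymphocyte-rich libraries.

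In cortical bone at 1 week, shallow libraries left 0 in PTH mice, in the average and for alendronate against vehicle in the right limb. PTH mice had 1 with the pseudocount, 4 with weights and 1 with no term for the code series, without which alendronate against vehicle had 0. Vehicle mice had 1 with weights and 2 with edgeR under TMM. At 2 weeks the average had 1 with quantile scaling, 3 with weights and 2 with edgeR under either scaling, and vehicle mice had 2 with edgeR under either scaling. In lymph node, loading in vehicle mice at 1 week had 3 with edgeR under either scaling. At 2 weeks alendronate against vehicle on the loaded side had 0 with the pseudocount, no filter and quantile scaling and 2 with weights. The cause of each was not tested.

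With the replicate block in cartilage, which pairs the limbs, alendronate mice had 1 call and PTH-alendronate mice 0 at 2 weeks, and no other count moved by over 1.5 times. In the other tables replicate numbers often do not pair limbs, and no such fit was made.

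Leaving out each replicate in turn gave 4 to 7 calls for PTH in cartilage. At 1 week loading in cartilage gave 0 to 1, 0 to 2, 1 to 2, 1 to 3 and, averaged, 3 to 5 (vehicle, PTH, alendronate, PTH-alendronate mice). At 2 weeks it gave 1 to 1, 2 to 3, 0 to 2, 0 to 1 and 2 to 4, and against vehicle 0 to 1 (alendronate) and 0 to 3 (PTH-alendronate). In cortical bone at 1 week it gave 0 to 1 in vehicle mice, 0 to 2 in PTH mice, 1 to 2 in the average and 0 to 2 for alendronate against vehicle, and in lymph node at 2 weeks 0 to 1. It was not run for cancellous bone or for lymph node before loading. All alternatives on lymphocyte-rich or other libraries that stood apart were chosen after seeing the data. At these depths members at a few reads, as Sfrp2 and Dkk2, are the least precise.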
